A study of Homo sapiens with 6 samples.

Results

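The genes described here encode 9 secreted stress hormones and peptides: GDF15, FGF21, STC1, STC2, ADM, ADM2, VEGFA, INHBE and INHBA. They were chosen by name, with earlier results of these data known. All 9 were found among the 43447 genes with any estimated count in the 6 RNA-seq libraries. In all, 58523 genes had a transcript in the tables. The libraries came from A375, a melanoma line grown in separate cultures, of which 3 stayed untreated (control replicates 1 to 3) and 3 were given hMGL for 24 h (treated replicates 4 to 6). hMGL is an engineered human enzyme that degrades methionine, an essential amino acid. Both groups grew in the same serum-containing medium, the labels give no dose of the enzyme, and they name no control with an inactive enzyme. A375 is 1 cell line grown alone in culture, and RNA was measured, not secreted protein.

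Cells short of an amino acid, of oxygen or of folding capacity in the endoplasmic reticulum release signals that act on other cells. GDF15 is a distant relative of the transforming growth factor beta family that reduces appetite through a receptor in the hindbrain, and FGF21 is a fibroblast growth factor of liver and stressed tissues that acts through a co-receptor, beta-klotho. Several of these genes are textbook targets of the integrated stress response, the pathway in which ATF4 and related transcription factors are made when general translation is slowed, while VEGFA and ADM are also textbook targets of hypoxia-inducible factor. Activins are pairs of inhibin beta chains that signal through SMAD proteins and are held in check by follistatins.

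Library totals ran from 50760266 to 59954677 estimated counts, and levels are given as CPM, the estimated counts of a gene relative to the scaled total of its library. Of the melanocyte-lineage markers, the transcription factors SOX10 (417 ± 31.4 CPM in control and 350 ± 6.77 in treated cells, mean ± SD, n = 3) and MITF (43.8 ± 1.86 and 41.5 ± 0.399 CPM) were present, while the pigment-cell genes TYR, DCT and MLANA averaged under 1 CPM in both groups. Of 7 tested markers, 2 were called higher and 3 lower by edgeR, where 34.9% of all genes tested were higher and 34.5% lower. PMEL, another pigment-cell gene, rose from 0.556 ± 0.0505 to 2.05 ± 0.0987 CPM (adjusted p = 5.25e-08, log2 fold change 1.88), and DCT was also called higher (0.92, adjusted p = 0.0279). SOX10 was called lower (-0.26, adjusted p = 0.00167). S100B, a calcium-binding protein of neural crest cells, fell from 38.6 ± 0.831 to 5.83 ± 1.12 CPM (log2 fold change -2.72, adjusted p = 3.01e-06). S100A1 fell from 68.9 ± 5.08 to 37.3 ± 0.993 CPM (-0.89, adjusted p = 1.91e-10). The summed level of the 8 listed markers was 544.7 to 614.6 CPM in control and 431.3 to 445.8 CPM in treated libraries. Of the 6 listed immune markers, 5 were at or under 1 CPM in every library. In bulk RNA, fewer cells of a kind and less RNA per cell cannot be told apart.

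Treated cells held more RNA of 7 of the 9 genes and less of STC1, while FGF21 was too low to test. GDF15 rose most among the 8 tested genes, 40.4-fold, followed by ADM2 at 18.0-fold, INHBE at 11.6-fold, INHBA at 9.25-fold, STC2 at 9.05-fold, VEGFA at 6.91-fold and ADM at 6.05-fold. STC1 fell 1.91-fold. The treatment changed most of the transcriptome: 69.4% of the 22580 genes tested passed an adjusted p of 0.05 (edgeR's quasi-likelihood test, Benjamini-Hochberg), 34.9% higher and 34.5% lower, so passing that threshold is common here. A rise of at least 4-fold past the threshold was seen in 4.25% of the genes tested, and all 7 genes that rose here were past that size. Because the genes were chosen with earlier results of these data known, that share is not a test of them. In all 8 tested genes the 3 treated libraries lay outside the range of the 3 controls, as they did for 73.3% of all genes tested. The median log2 fold change over all genes tested was -0.02.

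**Figure D1:**
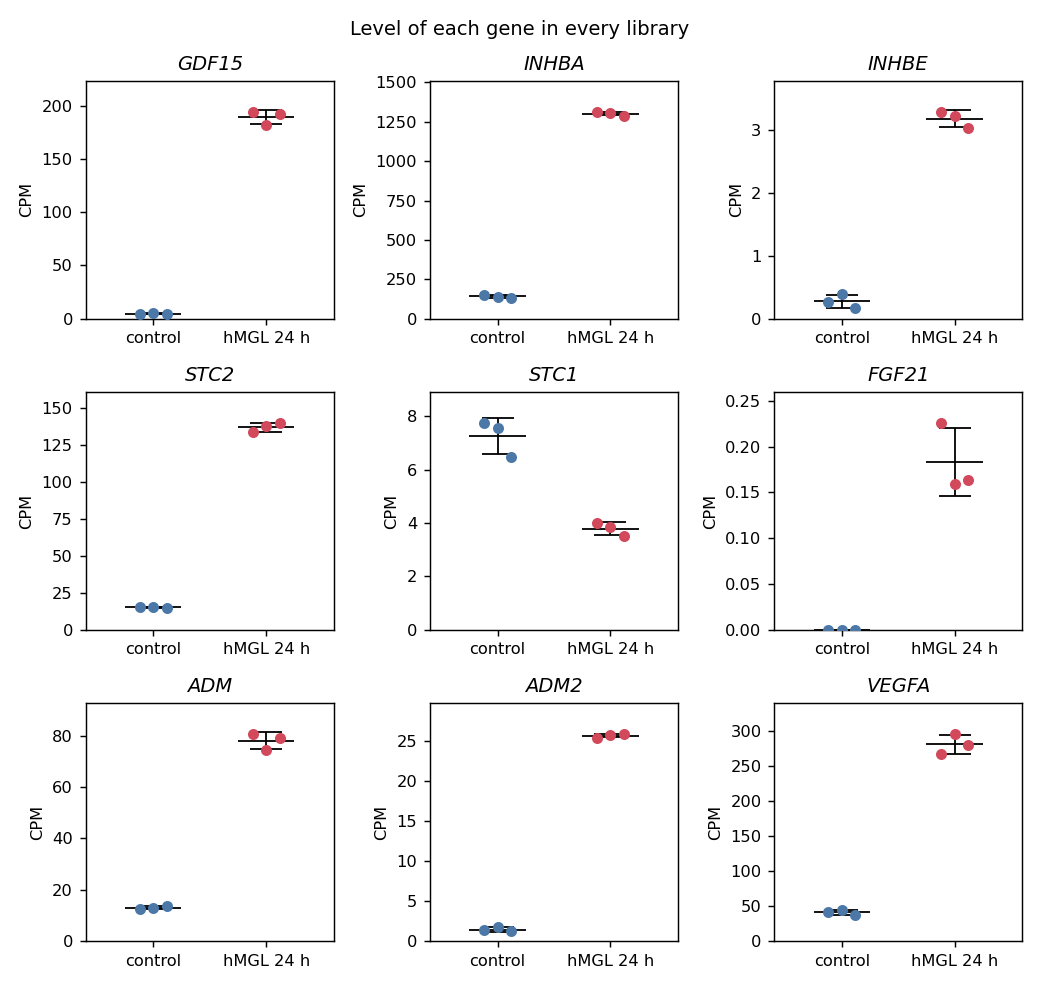
Level of each of the 9 genes in CPM (linear axes from 0) in the 3 control and 3 hMGL-treated libraries; points are libraries, the long bar is the mean and the whiskers are 1 SD. The treated points lie above the controls in every panel except STC1, where they lie below, and FGF21 is at 0 in all 3 controls.

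**Figure D2:**
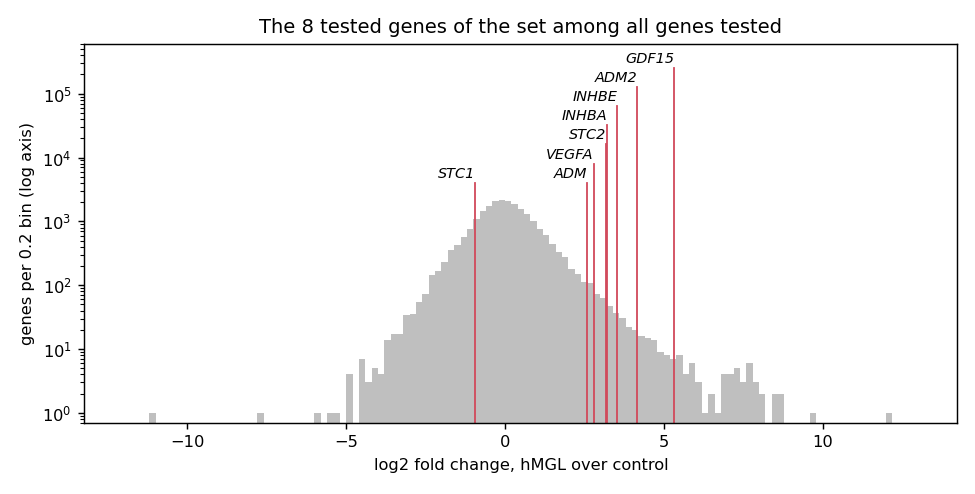
Histogram of the log2 fold change of all 22580 genes tested (grey, number of genes per bin on a log axis), with the 8 tested genes of the set as red lines whose heights carry no value. STC1 lies at -0.93 and the other 7 between 2.60 (ADM) and 5.34 (GDF15).

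GDF15 (ENSG00000130513, chromosome 19, 18374731 to 18389176, plus strand, GRCh38) stood at 4.52, 4.88 and 4.66 CPM in control replicates 1, 2 and 3, and at 194, 182 and 193 CPM in treated replicates 4, 5 and 6. Both groups were tight, and the lowest treated library held 182 CPM against a highest control of 4.88 CPM. The log2 fold change was 5.34 (SE 0.045, adjusted p = 1.47e-21), and 59 of the 22580 genes tested had a higher one. The main coding transcript, GDF15-201, carried 88.0% to 93.2% of the gene's counts in control and 95.5% to 95.9% in treated libraries. A minor one, GDF15-204, was listed at 1470 bases in the deposited data against 562 in GENCODE 29. It rose less than the gene (usage log2 difference -2.42, adjusted p = 0.0313). That call was lost without control replicate 1 (adjusted p = 0.0811) or 3 (0.289), without treated replicate 4 (0.199), 5 (0.221) or 6 (0.103), and with no filter beyond a mean of 1 count (0.0722). The gene contains the microRNA gene MIR3189, on the same strand, which had 0 counts in the controls and 9, 8 and 8 counts in the treated libraries. The receptor for GDF15 is GFRAL, which signals with the tyrosine kinase RET. GFRAL was too low to test, with 0.0640 ± 0.0404 CPM in control and 0.0132 ± 0.0115 CPM in treated cells, and RET was listed at 0 in every library.

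FGF21 (ENSG00000105550, chromosome 19, 48755559 to 48758333, plus strand) is the faintest of the 9. It had 0 counts in all 3 control libraries and 12, 8 and 8 counts in the treated ones, which is 0.226, 0.159 and 0.164 CPM. Every treated library therefore held some FGF21 reads and no control library held any. The treated total of 28 counts has an exact Poisson 95% interval of 18.6 to 40.5, for counting error only. Against the limit of 3 counts that a count of 0 over the whole control group allows, the treated total was 9.73-fold higher in CPM. This ratio allows for counting error in the controls only, and the interval of the treated total was not carried into it. The gene did not pass the filter on low counts and has no p value among the 22580 genes tested. With no such filter, edgeR gave an adjusted p of 2.79e-06, with 43219 genes tested, and its fitted fold change is not given because the controls are all at 0.

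The window of 250 bases before the FGF21 start site holds the core of the composite element that ATF4 binds together with a C/EBP partner. It is shown because this was the only match to any of the 3 motifs searched in the windows of the 6 genes that had one. The bases from 133 to 1 before the start, at chr19:48755391-48755523 on the plus strand of GRCh38.p14 (RefSeq), overlap no annotated exon, and the capitals mark the match, 54 to 47 bases before the start.
FGF21 upstream run: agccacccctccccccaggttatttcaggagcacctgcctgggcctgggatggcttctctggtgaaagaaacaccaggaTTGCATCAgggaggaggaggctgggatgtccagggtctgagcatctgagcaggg
The motif searched was TGATGNAA, on both strands like the others, and the letters shown are its match on the minus strand. It overlaps no match of another motif. Of 27305 promoter windows of the same length, 3.19% hold TGATGNAA, 18.7% hold ACGTG, the core of the hypoxia-inducible factor element, and 0.0806% hold the endoplasmic reticulum stress element, searched in its full consensus form. The windows of GDF15, STC2, ADM, ADM2 and INHBA held none of the 3. Annotated exons cover all 250 bases of the STC2 and ADM windows, 241 of that of GDF15, 18 of that of INHBA and 0 of that of ADM2. The windows of GDF15, STC2 and ADM lie inside the spans given here for these genes. Sequence before any start further upstream was therefore not searched for them. Those of STC1, VEGFA and INHBE were not analysed here. A match is a string of letters in this window and was not tied to binding in these cells.

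FGF21 needs beta-klotho, encoded by KLB, beside an FGF receptor. KLB fell from 4.09 ± 0.530 to 2.03 ± 0.0348 CPM (log2 fold change -1.01, SE 0.13, adjusted p = 2.17e-06). Among the receptors, FGFR3 fell from 6.49 ± 0.445 to 0.735 ± 0.0183 CPM (log2 fold change -3.14, SE 0.13) and FGFR4 from 10.2 ± 0.0820 to 3.44 ± 0.0334 CPM (-1.57, SE 0.083). FGFR1 was at 24.6 ± 3.59 CPM in control and 21.0 ± 1.24 CPM in treated cells and did not pass the test (log2 fold change -0.23, SE 0.11, adjusted p = 0.119). It passed, as a fall, with an offset for transcript length (-0.75, adjusted p = 7.27e-06) and in 5 of the other alternatives.

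The stanniocalcins, glycoprotein hormones first known from calcium control in fish, moved in opposite directions. STC2 (ENSG00000113739, chromosome 5, 173314713 to 173329503, minus strand), which binds the protease PAPP-A and so limits release of insulin-like growth factor, stood at 15.2, 15.2 and 15.1 CPM in the controls and at 134, 138 and 140 CPM in the treated libraries. Its log2 fold change was 3.18 (SE 0.037, adjusted p = 2.96e-20). Most of the gene's counts came from the coding transcript STC2-201, with 90.2% to 92.6% in control and 90.7% to 92.2% in treated libraries. By TPM, which divides by length, STC2-201 made up 54.2% to 63.3% in control and 57.1% to 61.5% in treated libraries. The retained-intron record STC2-203, of 582 bases, made up 28.2% to 29.6% and 30.1% to 35.2% by TPM. STC1 (ENSG00000159167, chromosome 8, 23841915 to 23854807, minus strand) stood at 7.74, 7.54 and 6.47 CPM in control replicates 1, 2 and 3 and at 3.99, 3.86 and 3.52 CPM in treated replicates 4, 5 and 6. The groups did not overlap, and the log2 fold change was -0.93 (SE 0.10, adjusted p = 2.02e-07). Per length, in the TPM unit of the tables, STC2 and STC1 stood at 3.24 and 1.55 in control cells and at 30.5 and 0.7999 after treatment, so the gap between the pair widened.

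Adrenomedullin and intermedin are peptides of the calcitonin gene family that relax blood vessels. ADM (ENSG00000148926, chromosome 11, 10304680 to 10307397, plus strand) stood at 12.4, 12.7 and 13.6 CPM in the controls and at 80.6, 74.5 and 79.3 CPM in the treated libraries (log2 fold change 2.60, SE 0.046, adjusted p = 5.17e-18). ADM2 (ENSG00000128165, chromosome 22, 50481556 to 50486440, plus strand), which encodes intermedin, started lower, at 1.37, 1.72 and 1.19 CPM, and reached 25.4, 25.8 and 25.9 CPM. Its log2 fold change was 4.17 (SE 0.095, adjusted p = 4.50e-16). On the log2(TPM + 1) scale of the limma alternative the ADM2 change was 1.67, and its control level of 0.136 TPM lies under the pseudocount of 1. The estimates of both coding transcripts of ADM2 rose: ADM2-202 from 1.35, 0.758 and 0.709 CPM to 17.0, 15.4 and 11.8 CPM, and ADM2-201 from 0, 0.971 and 0.469 CPM to 8.70, 10.7 and 14.6 CPM. ADM2-201 was listed at 4213 bases in the deposited data against 535 in GENCODE 29, close to the 4276 of ADM2-202. Its share of the gene's counts was 0.000507%, 56.2% and 39.8% in control replicates 1, 2 and 3. The split between these transcripts is therefore not resolved.

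Both peptides act on CALCRL paired with a receptor activity-modifying protein. CALCRL itself was near 0.5 CPM in both groups (0.545 ± 0.131 in control, 0.490 ± 0.0549 in treated cells) and did not pass the test (log2 fold change -0.16, SE 0.28, adjusted p = 0.634). RAMP1 fell from 11.2 ± 0.436 to 1.91 ± 0.361 CPM (log2 fold change -2.55, SE 0.12, adjusted p = 1.70e-12). RAMP2, which with CALCRL makes the main adrenomedullin receptor, was at 0.279 ± 0.0586 and 0.120 ± 0.0563 CPM. Its log2 fold change was -1.21 (SE 0.46, adjusted p = 0.0272), and it no longer passed without control replicate 2 (adjusted p = 0.104), control replicate 3 (0.0679), treated replicate 4 (0.151) or treated replicate 5 (0.0589), nor in DESeq2 (0.123) or with a length offset (0.103). RAMP3 and ACKR3, a scavenger of adrenomedullin, were too low to test. PAM, the enzyme that amidates the end of both peptides, fell from 60.4 ± 2.75 to 47.6 ± 2.60 CPM (log2 fold change -0.34, SE 0.045, adjusted p = 3.18e-06).

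VEGFA (ENSG00000112715, chromosome 6, 43770184 to 43786487, plus strand) encodes the main growth factor of endothelial cells. It stood at 41.0, 43.5 and 37.3 CPM in control replicates 1, 2 and 3 and at 268, 295 and 279 CPM in treated replicates 4, 5 and 6. The lowest treated library was far above the highest control, and the log2 fold change was 2.79 (SE 0.063, adjusted p = 2.65e-09). An antisense gene, ENSG00000272114, overlaps VEGFA by 188 bases, and its counts were 151, 140 and 128 in the controls and 1097, 1065 and 1017 in the treated libraries. Whether the counting used strand is not given in the sources used here, so reads of the 2 genes in the overlap cannot be told apart. The VEGFA level is the sum of the 25 transcripts in the tables that match GENCODE 29 and leaves out any newer ones.

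VEGFA isoforms differ mainly in exons 6 and 7, whose basic stretches hold the protein to heparan sulfate at the cell surface and in the matrix. The short form lacks both exons and diffuses freely, the common middle form keeps exon 7 alone, and the longest keep both. The 2 exons are shown because the isoform comparison turns on them. Exon 6 is shown in its form of 72 bases. A form of 123 bases with the same start occurs in VEGFA-203 and VEGFA-224, which had 0 counts in every library. In exon 6 (chr6:43780732-43780803, plus strand, GRCh38, 72 bases) the capitals mark the 18 bases that transcripts with the shortened exon 6 lack.
VEGFA exon 6: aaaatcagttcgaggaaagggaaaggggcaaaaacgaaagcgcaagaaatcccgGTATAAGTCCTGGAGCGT
In exon 7 (chr6:43781956-43782087, plus strand) the capitals mark the 35 bases absent from the shortened exon 7.
VEGFA exon 7: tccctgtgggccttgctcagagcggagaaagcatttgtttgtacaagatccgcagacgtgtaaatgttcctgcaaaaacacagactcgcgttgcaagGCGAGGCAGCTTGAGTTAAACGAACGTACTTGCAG

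Of the 25 VEGFA transcripts, 17 had counts, 13 passed the filter and 11 of those 13 rose, while 32.7% of all 83015 transcripts tested were called and 17.5% were called higher. VEGFA-206, which lacks exons 6 and 7 and has 147 codons, rose from 9.19, 7.70 and 7.89 CPM to 64.2, 61.7 and 61.3 CPM (log2 fold change 2.92, SE 0.081, adjusted p = 6.89e-06). VEGFA-201, which keeps exon 7 and lacks exon 6, rose from 10.2, 8.19 and 9.49 CPM to 60.2, 67.8 and 75.8 CPM (log2 fold change 2.87, SE 0.12, adjusted p = 3.28e-05). The log2 fold changes of VEGFA-206 and VEGFA-201 differed by less than the SE of the second. VEGFA-201 has 163 codons and lacks the first coding exon of 66 bases that VEGFA-206 has. VEGFA-222 has the 72-base form of exon 6, the whole exon 7 and 215 codons. It rose from 2.04, 1.97 and 1.66 CPM to 12.7, 23.4 and 15.3 CPM (log2 fold change 3.18, SE 0.26, adjusted p = 4.11e-04). VEGFA-223, with the shortened exon 7 and 174 codons, rose from 0.425, 1.06 and 1.79 CPM to 15.3, 9.44 and 11.5 CPM (log2 fold change 3.46, SE 0.54, adjusted p = 0.00512). VEGFA-225, a middle form of 191 codons, scattered from 0 to 1.45 CPM in control and from 1.56 to 5.98 CPM in treated libraries and did not pass the test (adjusted p = 0.177), except under limma on log2(TPM + 1) (adjusted p = 0.0311).

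VEGFA-205 and VEGFA-209 had equal estimates and equal listed lengths in all 6 libraries, so they are read as a pair. VEGFA-209 was listed at 3535 bases in the deposited data against 1575 in GENCODE 29, so the exons of its counted sequence are not known. In GENCODE 29 the first coding exon of both is extended upstream, VEGFA-205 has 371 codons and keeps exon 7, and VEGFA-209 has both exons. Each was estimated at 2.83, 5.03 and 2.79 CPM in the controls and at 37.6, 50.7 and 40.4 CPM in the treated libraries (log2 fold change 3.60, SE 0.29, adjusted p = 3.76e-04), and all treated libraries were above all controls. Their share of the gene's counts was 17.4% ± 4.97 in control and 30.0% ± 3.34 in treated cells. By TPM, which divides by length, the share was 7.86% ± 2.53 and 11.7% ± 1.97, and the groups overlapped, with 10.8% in control replicate 2 and 10.4% in treated replicate 4. The test of usage, which compares each transcript's change with that of the whole gene, did not call either of them (log2 difference 0.78, adjusted p = 0.295).

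The retained-intron records of VEGFA took a smaller share of its counts in treated cells. Together they made up 31.4%, 30.1% and 28.8% of the gene's counts in the controls and 13.1%, 11.2% and 11.8% in the treated libraries, with no overlap. By TPM that share was 10.2% ± 1.71 and 5.95% ± 0.282. VEGFA-212, a record of 12167 bases that spans most of the gene's introns, went from 9.87, 9.28 and 7.86 CPM to 22.5, 21.0 and 20.8 CPM (log2 fold change 1.25, SE 0.10, adjusted p = 3.29e-04). VEGFA-215 rose by 1.63 on the log2 scale (SE 0.17), VEGFA-211 by 2.96 (SE 0.39), VEGFA-214 by 3.33 (SE 0.33) and VEGFA-216 by 2.55 (SE 0.52), and VEGFA-217 was not called (1.73, SE 1.144, adjusted p = 0.309). VEGFA-216 no longer passed without control replicate 2 (adjusted p = 0.0569) or treated replicate 6 (0.0545). VEGFA-212 was the only VEGFA transcript whose usage passed the test (log2 difference -1.56, adjusted p = 0.00600), where 3.28% of the 73934 transcripts tested for usage did. That call was lost without control replicate 1 (adjusted p = 0.104), control replicate 2 (0.0505), treated replicate 5 (0.1005) or treated replicate 6 (0.0648), and with no filter beyond a mean of 1 count (0.0966), while its log2 difference stayed between -1.601 and -1.497 in those 5 fits.

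The pair VEGFA-205 and VEGFA-209 was kept as a class of its own and enters none of the shares that follow. Those shares are therefore not the full share of each exon content. Transcripts with exon 7 and without exon 6 took 24.5% ± 2.08 of VEGFA counts in control and 25.3% ± 2.98 in treated cells, and by TPM 49.7% ± 5.01 and 44.1% ± 4.47. Those with neither exon took 20.5% ± 2.58 and 22.0% ± 1.57 of counts, and by TPM 10.7% to 14.1% in control and 10.6% to 11.5% in treated libraries. Those with both took 4.67% ± 0.315 and 6.32% ± 1.31 of counts, and by TPM 7.81% ± 1.06 and 9.76% ± 2.01. Those with the shortened exon 7 took 2.77% ± 1.91 and 4.29% ± 1.27 of counts, and by TPM 12.4% ± 7.64 and 17.2% ± 4.46. By counts, the libraries of the 2 groups overlapped in each of these classes except that with both exons, where the controls lay between 4.46% and 5.03% and the treated libraries between 5.52% and 7.82%. By TPM that class overlapped too, with 8.90% in control replicate 1 and 8.02% in treated replicate 6. No test beyond that of single transcripts was run on the classes.

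**Figure D3:**
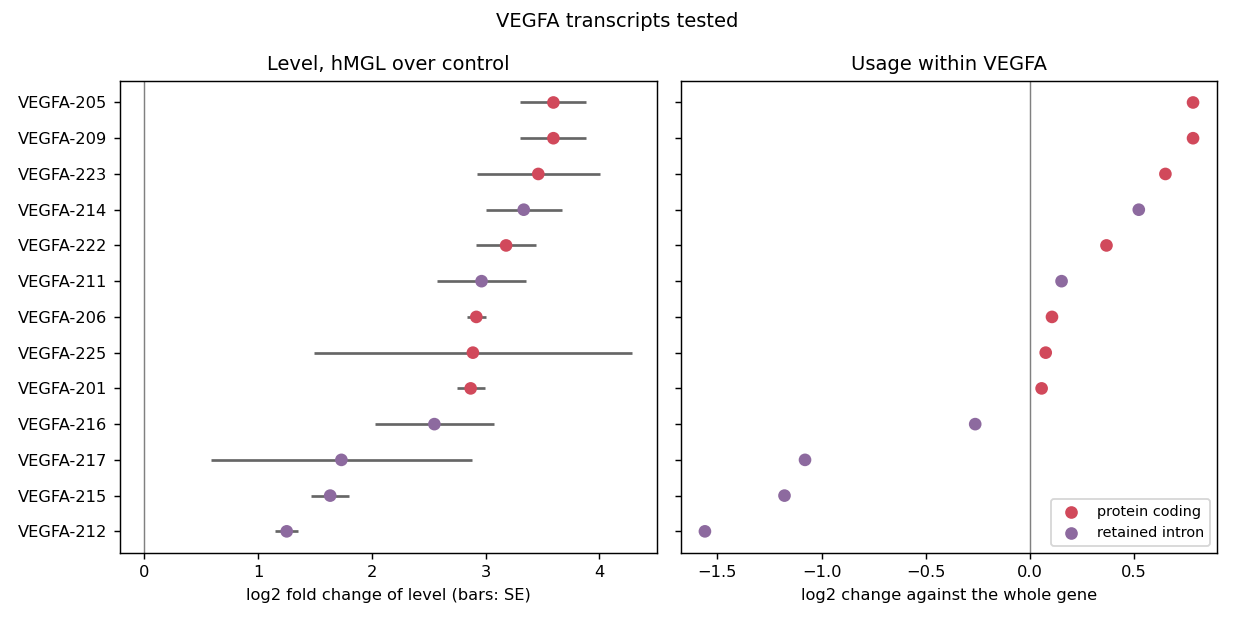
The 13 VEGFA transcripts tested, coding in red and retained intron in purple: at left the log2 fold change of level with its SE, at right the log2 change of usage relative to the gene as a whole. All 13 levels are above 0, from 1.25 (VEGFA-212) to 3.60 (VEGFA-205 and VEGFA-209), and the lowest usage value is that of VEGFA-212 at -1.56.

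Of the VEGFA receptors, FLT1, a high-affinity receptor that also acts as a decoy, fell from 31.5 ± 1.51 to 10.5 ± 1.22 CPM (log2 fold change -1.59, SE 0.075, adjusted p = 8.68e-10). KDR, the main signalling receptor of endothelial cells, was at 5.52 ± 0.219 and 4.97 ± 0.341 CPM and did not pass the test (adjusted p = 0.172). The co-receptor NRP1 rose from 112 ± 1.81 to 205 ± 3.38 CPM (log2 fold change 0.88, SE 0.029, adjusted p = 1.81e-14), and NRP2 rose by 0.12 on the log2 scale (SE 0.031, adjusted p = 0.00255). The relatives of VEGFA moved less than VEGFA did: VEGFB fell from 35.6 ± 1.22 to 18.5 ± 0.680 CPM (log2 fold change -0.94), PGF rose from 3.33 ± 0.219 to 6.08 ± 0.324 CPM (0.87) and VEGFC rose from 16.2 ± 0.806 to 19.6 ± 0.832 CPM (0.28). In the listed VEGF family and angiogenesis factors, 9 of 13 tested genes were higher and 4 lower, with a median log2 fold change of 0.82, where 34.9% of all genes were higher and 34.5% lower. THBS1, an inhibitor of angiogenesis, rose from 2055 ± 17.9 to 4420 ± 97.6 CPM.

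Of 13 tested genes in a list of regulators of VEGFA mRNA, 3 rose, 7 fell and 3 did not pass, with a median log2 fold change of -0.30. That is 76.9% called, against 69.4% of all genes. The list pools RNA-binding proteins, splicing regulators and kinases of splicing factors. Their effects on the mRNA differ, so the median gives no direction for VEGFA. HNRNPL, which binds VEGFA mRNA, fell from 330 ± 9.63 to 80.8 ± 1.55 CPM (log2 fold change -2.03, SE 0.032). The splicing regulator SRSF2 fell by 0.79 on the log2 scale, while CLK1, a kinase of splicing factors, rose from 25.6 ± 0.982 to 51.2 ± 0.868 CPM and ZFP36L1, which promotes decay of AU-rich mRNAs, rose by 1.11 on the log2 scale.

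INHBA (ENSG00000122641, chromosome 7, 41667168 to 41705834, minus strand) encodes the chain of activin A. It stood at 152, 137 and 134 CPM in control replicates 1, 2 and 3 and at 1312, 1306 and 1289 CPM in treated replicates 4, 5 and 6. The groups were far apart, and the log2 fold change was 3.21 (SE 0.044, adjusted p = 3.02e-15). INHBA-201 carried 89.4% to 91.7% of the counts in control and 94.4% to 94.6% in treated libraries. INHBA-203, which codes for the same 426 codons, rose by 2.18 on the log2 scale (SE 0.081), and its share of the gene went from 5.57%, 6.80% and 7.42% to 3.29%, 3.003% and 3.18%. Its usage was called lower (log2 difference -1.05, adjusted p = 0.0253), and the call was lost without control replicate 2 (0.0703), control replicate 3 (0.113), treated replicate 4 (0.113), treated replicate 5 (0.151) or treated replicate 6 (0.117), and with no filter beyond a mean of 1 count (0.1001).

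INHBE (ENSG00000139269, chromosome 12, 57452323 to 57459280, plus strand) encodes the chain of activin E, known mainly from liver. It was faint, at 0.260, 0.388 and 0.176 CPM in the controls, and reached 3.28, 3.22 and 3.03 CPM in the treated libraries. The groups were well apart (log2 fold change 3.54, SE 0.22, adjusted p = 1.21e-10), on 43.3 counts in all controls together. Under limma the change was 0.73 on log2(TPM + 1) and 2.27 on log2(TPM + 0.1), scales that understate a gene this low. Another beta chain, INHBB, went from 0.0376 ± 0.0186 to 0.276 ± 0.0381 CPM (log2 fold change 2.79, SE 0.55, adjusted p = 2.21e-04), a call lost in limma on log2(TPM + 1) (adjusted p = 0.0625), and INHBC was too low to test. INHA, whose alpha chain turns a beta chain into inhibin, was at 0.722 ± 0.0994 and 0.503 ± 0.139 CPM and did not pass the test (adjusted p = 0.0888), though it passed as a fall with a length offset (adjusted p = 0.0227) and in both limma fits.

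The receptors of activin did not move as one. ACVR2A, a type II receptor that binds activin, rose from 11.5 ± 0.718 to 32.5 ± 1.44 CPM (2.82-fold, SE of log2 0.055, adjusted p = 7.25e-14), and ACVR1B, the type I receptor, rose by 0.23 on the log2 scale (SE 0.054, adjusted p = 0.00125). ACVR2B fell by 0.29 on the log2 scale (SE 0.041, adjusted p = 5.77e-06), a call lost in limma on log2(TPM + 1) (adjusted p = 0.283) and on log2(TPM + 0.1) (0.306). Both follistatins, which bind activin and keep it from its receptors, were lower: FST fell from 93.1 ± 5.67 to 46.5 ± 1.82 CPM (log2 fold change -1.002, SE 0.045, adjusted p = 1.07e-11) and FSTL3 by 0.44 (SE 0.052). Among all 17 activin and inhibin partners and relatives tested, 6 rose, 9 fell and 2 did not pass, with a median log2 fold change of -0.52 and 88.2% called against 69.4% of all genes. SMAD6, an inhibitor of SMAD signalling, fell by 3.11 on the log2 scale, and BMP2, a bone morphogenetic protein, rose by 2.64. Of the 19 tested genes of the receptor list, which holds none for STC1 or STC2, 4 rose, 9 fell and 6 did not pass, so 68.4% passed against 69.4% of all genes.

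**Figure D4:**
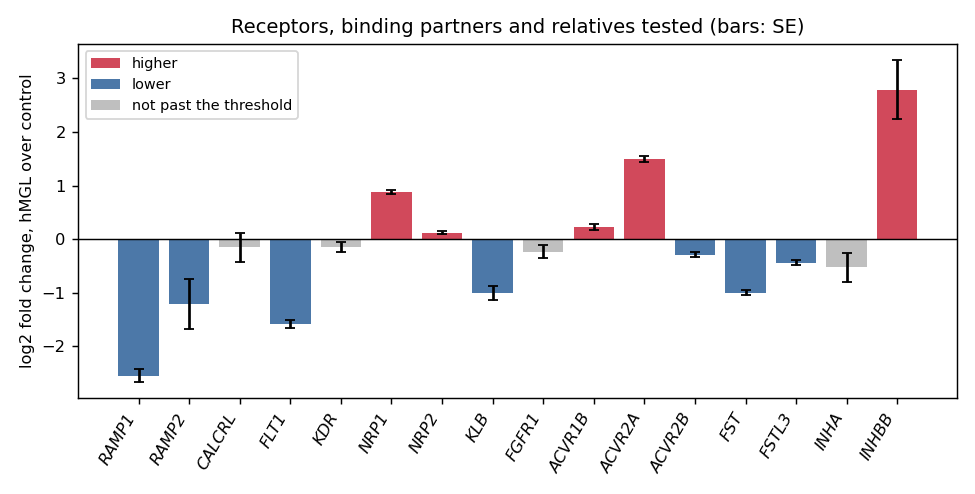
Log2 fold change, hMGL over control, of 16 receptors, binding partners and relatives of the 9 proteins, with SE bars; red passed the test as higher, blue as lower, and grey did not pass. The values run from -2.55 (RAMP1) to 2.79 (INHBB), with receptors of the same ligand on both sides of 0.

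Of 13 tested genes known to respond to activin and SMAD signalling, 11 rose and 2 fell, with a median log2 fold change of 1.04. Over all genes tested 34.9% were higher and 34.5% lower, with a median of -0.02. CCN2, a matrix-associated signalling protein, rose from 38.7 ± 2.43 to 108 ± 1.31 CPM (log2 fold change 1.48, SE 0.042), and PMEPA1 rose by 1.05 on the log2 scale. TGFBI, a matrix protein also counted in this list, fell by 1.85, and ID1 fell by 0.66. SMAD7 rose by 1.17. Whether activin acted on the cells was not tested.

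Compared per length, in TPM, the order of the levels changed in the middle and at the low end. Control cells ranked INHBA (23.1 ± 2.45 TPM), VEGFA (14.5 ± 1.11), ADM (4.84 ± 0.208), STC2 (3.24 ± 0.227), GDF15 (2.39 ± 0.305), STC1 (1.55 ± 0.223), ADM2 (0.136 ± 0.0348), INHBE (0.1001 ± 0.0725) and FGF21 at 0, and the libraries of neighbours overlapped only between ADM2 and INHBE. Treated cells ranked INHBA (218 ± 17.9 TPM), VEGFA (124 ± 6.97), GDF15 (97.3 ± 9.32), ADM (31.5 ± 3.18), STC2 (30.5 ± 0.996), ADM2 (2.61 ± 0.177), INHBE (0.827 ± 0.104), STC1 (0.7999 ± 0.117) and FGF21 (0.0976 ± 0.0291). There the libraries of ADM and STC2 overlapped, and so did those of INHBE and STC1. GDF15 moved from the fifth to the third place and STC1 from the sixth to the eighth. The 9 genes together made up 51.6, 52.6 and 45.3 TPM in the controls and 549, 484 and 484 TPM in the treated libraries, and INHBA alone was 42.2% to 49.0% of that sum in every library.

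**Figure D5:**
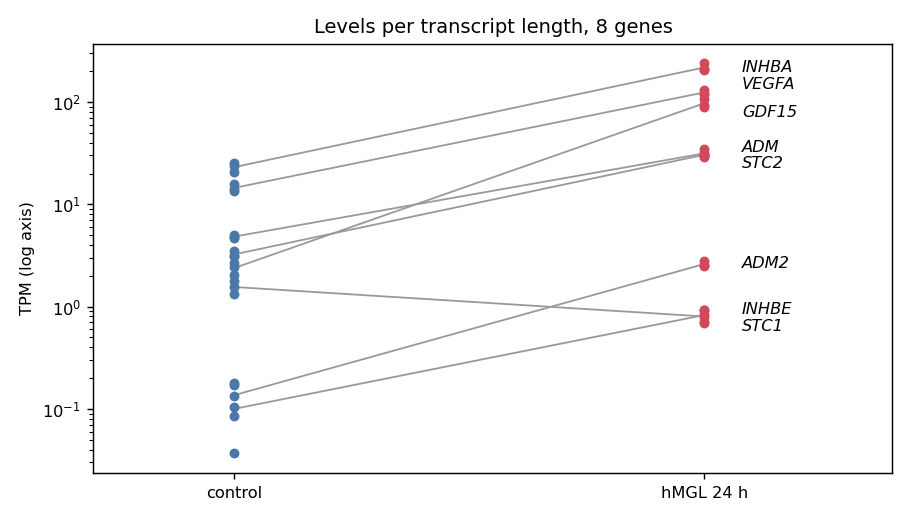
Length-corrected level (TPM, log axis) of the 8 genes detected in both groups, with each library as a point and lines joining the group means; FGF21 is left out because its controls are at 0. The line of GDF15 crosses those of STC2 and ADM, and the line of STC1 falls to the level of INHBE.

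The other genes of the pathways to which these hormones belong were read from lists, also chosen with earlier results of these data known. Across all 10 lists together, 181 genes were tested, of which 96 rose, 64 fell and 21 did not pass. Among 27 tested intracellular targets of the integrated stress response, 23 rose, 3 fell and 1 did not pass, with a median log2 fold change of 1.43, where 34.9% of all genes were higher and 34.5% lower. PPP1R15A, which helps to restore translation, went from 122 ± 1.99 to 4586 ± 79.7 CPM (log2 fold change 5.24, SE 0.034), while PHGDH, the first enzyme of serine synthesis, fell by 0.66. Of the other two lower genes, ALDH18A1 was not called with library totals in place of TMM (adjusted p = 0.112), with a length offset (0.0675) or in limma (0.819 and 0.816), and JDP2 was not called in limma (0.182 and 0.194). Of 18 tested transcription factors of these pathways 15 rose and 3 fell, with a median of 0.75. ATF3 rose by 4.76 and DDIT3 by 3.99 on the log2 scale, and both are also counted among the intracellular targets above. ATF4 rose from 9.67 ± 1.63 to 14.6 ± 1.62 CPM (log2 fold change 0.59, SE 0.14, adjusted p = 0.00981), a level that covers only its transcripts in GENCODE 29.

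The hypoxia list, to which VEGFA and ADM are usually joined, moved in both directions. Of its 26 tested genes, which hold none of the 9 hormones, 10 rose, 13 fell and 3 did not pass, with a median of -0.21 and 88.5% called against 69.4% of all genes. The glycolytic enzymes LDHA and PGK1 fell by 1.28 and 1.21, and BNIP3, a mitophagy receptor, by 1.26. BHLHE40, a transcription factor, rose by 2.07, the glucose transporter SLC2A3 by 1.63 and NDRG1 by 0.71. HIF1A itself rose from 382 ± 16.0 to 559 ± 19.3 CPM (log2 fold change 0.55, SE 0.034), and its partner ARNT fell by 0.76.

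Of 15 tested genes of the secretory route, 3 rose, 8 fell and 4 did not pass, with a median of -0.34 and 73.3% called against 69.4% of all genes. SEC61A1, the channel through which secreted proteins enter the endoplasmic reticulum, fell from 339 ± 3.23 to 222 ± 1.41 CPM (log2 fold change -0.61), and SPCS1 of the signal peptidase fell by 0.61. FURIN, a protease that matures activin precursors, was at 75.6 ± 3.03 and 109 ± 18.4 CPM (log2 fold change 0.52, SE 0.14, adjusted p = 0.0287). Its call was lost without control replicate 1 (0.0793), control replicate 2 (0.0816), control replicate 3 (0.0928) or treated replicate 5 (0.0565). The other two higher genes are proteases of the same family: PCSK7 was not called without control replicate 2 (adjusted p = 0.0532) or treated replicate 5 (0.0527), and PCSK6 was not called without control replicate 3 (0.0505) or treated replicate 4 (0.0727), with a length offset (0.117) or in limma (0.124 and 0.148).

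For each tested gene the 3 protein-coding genes of the most similar profile over the 6 libraries were taken, by the root mean square distance of log2(CPM + 1) from the control mean. PPP1R15A and EGR1 were nearest to GDF15, at distances of 0.125 and 0.219, then DMBT1 at 0.360. For STC2 they were KLF10 (0.0185), ITPRIP (0.0204) and CSRNP1 (0.0461), and KLF10 was also among the 3 nearest to INHBA (0.0824), as was IER2 (0.0582). VEGFA lay nearest to UPP1 (0.0694), ADAMTS6 and NR1D1, and ADM to MAP1LC3B (0.0499), ZNF558 and PRKAB2. ADM2 was closest to ESM1 (0.0831), AVPI1 and GADD45A, and STC1 to SHISA4 (0.0398), ACY1 and ADCY6. INHBE, at low CPM, matched genes of smaller change, ZNF808, LIF and FOXC2, since a pseudocount of 1 shrinks its values. The same holds for ADM2, at 1.43 CPM in control cells. Its log2 fold change was 4.17, against 3.68 for ESM1, 3.44 for AVPI1 and 3.45 for GADD45A. For each, 9560 or 9561 genes were compared, and with 2 groups of libraries a short distance mostly means a similar size of change.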

How the data were processed

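RNA-seq was run on 6 A375 cultures, 3 untreated and 3 treated with hMGL for 24 h. Per the file headers, the authors deposited estimated counts and TPM per transcript with listed and effective lengths. Tools listed in the submitters' processing notes are kallisto (0.45.0) and DESeq2 (1.30.0), with no role. The transcript index and build are not given in the sources used here. Of 244939 transcripts, 203436 were matched to GENCODE 29 (GRCh38) and summed to genes. The other 41503, with 4.86% to 5.13% of a library's counts, were left out.

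The members and lists were chosen with earlier results of these data known. Gene sums were rounded, filtered (filterByExpr, minimum count 10, minimum total 15) and scaled by TMM. Groups were compared with edgeR 4.0.16 (quasi-likelihood, robust, two-sided, R 4.3.3), adjusted by Benjamini-Hochberg over all 22580 genes, threshold 0.05. Transcripts were tested likewise, and usage with diffSpliceDGE. The labels call the cultures independent, and the common biological coefficient of variation was 0.074. CPM uses TMM-scaled library totals. A change is treated over control. Scripts were tested on simulated data.

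Alternatives were other scalings, filters, a length offset, DESeq2 1.42.0, limma 3.58.1 on log2(TPM + 1) and log2(TPM + 0.1), and leaving out each library. Named genes were all 9 members, every VEGFA transcript tested, a fixed set of receptors and partners, and from each companion list up to 3 higher and 3 lower genes with the lowest adjusted p, plus the 3 coding genes of at least 10 CPM nearest in profile to each tested member. Of these, those that add to a result on a member are printed. A few named genes are not reported here. S100B and the other markers were chosen for the check of cell identity. Lists covered receptors, activin partners, activin and SMAD targets, the VEGF family, other secreted peptides, secretory processing, transcription factors and targets of the stress response, hypoxia targets, VEGFA RNA regulators and markers of melanoma, fibroblast, endothelial, immune and epithelial cells. Promoter sequences came from RefSeq (GRCh38.p14), which held 6 of the 9 genes.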

Additional observations from a re-analysis of the deposited data

Results flagged for a closer look

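MIR3189, a microRNA gene inside GDF15 and on its strand, was not part of any comparison and held 25 counts in the treated libraries together against 0 in the controls. Its 73 bases lie within GDF15, so reads of the host transcript and of the microRNA gene cannot be told apart in these tables.

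Transcripts that matched no gene in GENCODE 29 took a mean of 5.09% of the counts of a treated library and 4.93% of those of a control library. They are outside every comparison, and any of them that belong to VEGFA or to another of the 9 genes are missing from its level.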

How the results depend on the processing

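All 8 tested genes kept their direction and their call in all 14 alternatives. The count of these genes past the threshold was 8 in each except with no filter, where FGF21 made it 9. Over all genes the library totals without TMM moved the median log2 change to 0.06, with 54.8% of the calls higher, and limma on log2(TPM + 1) gave 57.8% higher. The VEGFA usage count of 1 became 0 with no filter beyond a mean of 1 count, and ranged from 0 to 1 when each library was left out. Without treated replicate 5 the 1 call was not VEGFA-212. Signs turned, with no call before or after, when a library was left out, for CALCRL (from -0.34 to 0.018), VEGFA-206 usage (-0.0050 to 0.18) and VEGFA-201 usage (-0.090 to 0.12, with -0.030 without treated replicate 6). For the usage calls that were lost, the cause was not tested. No paired analysis was possible because the groups share no replicate number. Depth limits FGF21, GFRAL, RAMP2 and INHBB, all under 1 CPM in every library.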

Other observations

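Of 27 other secreted peptides and cytokines tested, 19 were higher, 6 lower and 2 not past the threshold, with a median log2 fold change of 1.24 (edgeR), where 34.9% of all genes were higher and 34.5% lower. CSF2, which encodes the granulocyte and macrophage growth factor GM-CSF, went from 0.392 ± 0.0889 to 13.4 ± 0.423 CPM (log2 fold change 5.09, SE 0.13, n = 3). LIF, a cytokine of the interleukin family that signals through STAT proteins, rose from 32.6 ± 1.64 to 108 ± 0.714 CPM, and IL11, its relative, from 9.87 ± 0.484 to 31.0 ± 1.18 CPM. Among the 6 lower genes, TGFA, a ligand of the epidermal growth factor receptor, fell from 320 ± 10.96 to 135 ± 5.09 CPM, and FGF1 from 4.70 ± 0.166 to 1.52 ± 0.140 CPM. UCN2, a peptide of the corticotropin-releasing hormone family, fell from 40.9 ± 0.833 to 27.7 ± 1.19 CPM.

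The 6 fibroblast markers summed to 14.4 to 16.5 CPM in control and 4.60 to 5.12 CPM in treated libraries, the 6 endothelial markers to 8.26 to 9.36 and 8.77 to 8.96 CPM, and the 6 immune markers to 29.9 to 32.8 and 36.7 to 39.8 CPM, nearly all of it CD68. The 5 epithelial markers summed to 353 to 373 and 333 to 340 CPM, nearly all of it KRT18. Of the tested markers, 0 of 5 fibroblast genes were higher and 3 lower, 1 of 5 endothelial higher and 1 lower, 3 of 3 immune higher, and 2 of 4 epithelial higher and 2 lower, against 34.9% higher and 34.5% lower over all genes.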
